A study of Homo sapiens with 60 samples.

Results

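MDA-MB-231 cells were compared after 3 h in 1000 nM BAY2506856, the highest dose used, and after 3 h in DMSO, the vehicle. The comparison uses 9 of the 60 libraries of the series, 3 with the compound and 6 with DMSO, chosen by the treatment and time in their labels. MDA-MB-231 is an established human triple-negative breast cancer line, and both groups share the line and the overnight growth before treatment. Poly(A) RNA was sequenced as single reads from stranded libraries. The other groups received DMSO for 1, 6 or 24 h, the same dose for those times, or 100 or 300 nM at each time. The text on the series' design names a harvest at 24 h only, and the times used here are those of the labels. A single cell line was used, and the labels do not say whether replicates came from separate cultures, so p-values may measure technical spread only.

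YAP1 and WWTR1 (TAZ) are transcriptional co-activators that shuttle into the nucleus, where they bind TEAD factors on DNA and switch on genes of growth, adhesion and matrix signalling. The Hippo kinases hold them in the cytoplasm, and tension in the actin cytoskeleton favours their entry into the nucleus. The labels give no target for BAY2506856, a compound known from work on inhibitors of the YAP1/TAZ pathway. The question of the 3 h comparison is which messages move first.

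The 1000 nM libraries held 12.2, 1.45 and 7.75 M reads assigned to genes, against 2.37 to 48.6 M in the 6 DMSO libraries. Levels of 11 pseudogenes and of MT-ND6, a mitochondrial message, split the libraries of the series into 3 types, on which the labels are silent. Of the 1000 nM libraries, replicates 1 and 3 were of the first type and replicate 2, the shallowest, of the second. Of the DMSO libraries, replicates 4 and 5 were of the first type, replicate 6 of the second and replicates 1 to 3 of the third, so the third type held no 1000 nM library at 3 h. Markers of mesenchymal breast cancer cells such as VIM and CD44 summed to 1175 to 1276 FPKM (fragments per kilobase of transcript and M reads) in 1000 nM libraries and 1164 to 1272 FPKM in DMSO libraries. SPARC, another gene of that list, was nearly absent, at 0.139 to 0.321 FPKM at 1000 nM and 0.111 to 0.391 FPKM in DMSO. Luminal markers summed to 223 to 250 FPKM at 1000 nM and 224 to 263 FPKM in DMSO, nearly all of it from the keratin genes KRT8 and KRT18, and the luminal marker ESR1 was at 0 in all 9 libraries. Leukocyte, endothelial and fibroblast lists summed to at most 2.42, 0.970 and 4.67 FPKM at 1000 nM and 2.28, 0.915 and 4.77 FPKM in DMSO, with CD3E, CDH5 and DCN at 0 throughout. Within-group pairs of libraries had a Pearson r of 0.937 to 0.984 at 1000 nM and 0.935 to 0.991 in DMSO across genes on the log2 scale, and no pair was a duplicate.

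After 3 h few messages had moved, and most of those that had were lower. Of 15866 genes tested with limma on log2(FPKM + 0.5), 21 were called at 1000 nM against DMSO (0.132%), 17 of them lower (0.107%) and 4 higher (0.0252%), where called means an adjusted p (Benjamini-Hochberg) under 0.05. The count was 34 without 1000 nM replicate 1 or without replicate 3, and 13 without replicate 2, which has the fewest reads. With only the 9 libraries of the comparison in the fit, CYR61 and CTGF were the 2 genes called. At an unadjusted p under 0.05 there were 1176 genes, and the median log2 change of all tested genes was -0.02. Log2 changes are on this scale with its pseudocount, which understates the changes of weakly expressed genes. The libraries of the 2 groups did not overlap in 20 of the 21 called genes, against 339 of all tested genes (2.14%), 194 higher (1.22%) and 145 lower (0.914%). Only 3 of the 21 changed at least 2-fold, and these were CYR61, AMOTL2 and RP11-1072A3.4. In these bulk libraries fewer cells of a type and less RNA per cell cannot be told apart.

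**Figure D1:**
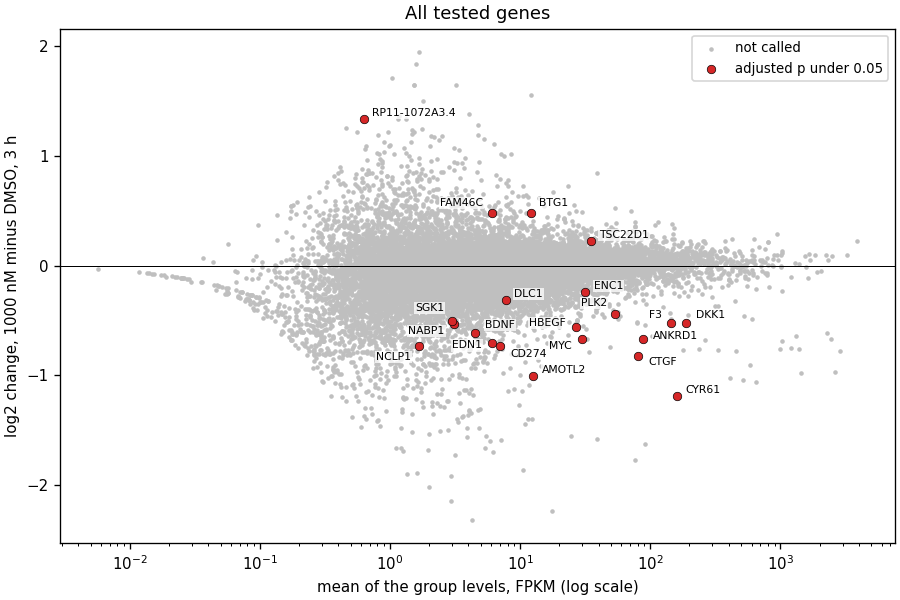
Log2 change at 1000 nM against DMSO after 3 h (y axis, log2) for all 15866 tested genes by the mean of the group levels (x axis, FPKM, log scale), with the 21 called genes in red and named. The called genes are mostly below 0, and CYR61 lies far under most genes of its level, apart from a group of uncalled points near -1, which holds mitochondrially encoded messages.

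Among the gene lists, that of YAP1/TAZ targets held the most called genes by count. The list of 12 tested BTG/TOB, FAM46 and TSC22D genes, with 3 called, held as large a share. Of 32 listed targets, all tested, 8 were called lower and 0 higher, against 0.107% lower and 0.0252% higher over all tested genes. Their median log2 change was -0.17, beside -0.02 over all genes. Whether YAP1/TAZ act directly on these genes in these cells was not tested. The median of the targets was -0.12 with type terms and -0.07 within the first type. The 8 were the secreted matricellular genes CYR61 (CCN1) and CTGF (CCN2), the nuclear ankyrin repeat gene ANKRD1, the angiomotin gene AMOTL2, the tissue factor gene F3, the WNT antagonist gene DKK1, the endothelin gene EDN1 and the tumour suppressor gene DLC1. The list was drawn up with earlier results of these data known, so its count is a description and not independent evidence of its direction.

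CYR61, whose protein binds integrins in the matrix, measured 99.5, 95.6 and 98.7 FPKM in the 3 libraries at 1000 nM, against a lowest value of 211, a median of 224 and a highest of 237 FPKM in DMSO. Every 1000 nM library lay far below the lowest DMSO library. The gene fell by 1.19 ± 0.07 (SE) on the log2 scale, 2.28-fold lower, with a limma adjusted p of 7.96e-17. Among libraries of the first type alone the difference was -1.10 (2 against 2), and between those of the second type it was -1.18 (1 against 1).

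CTGF, a relative of CYR61 that acts in fibrosis, measured 58.5, 58.9 and 55.9 FPKM at 1000 nM, against 100.4, 102 and 107 FPKM as the lowest, median and highest in DMSO. The spread within each group was small beside the gap between them, with means of 57.8 ± 1.61 FPKM (SD, n = 3) at 1000 nM and 103 ± 2.39 FPKM in DMSO (SD, n = 6). CTGF was 1.77-fold lower at 1000 nM (log2 change -0.83 ± 0.07, adjusted p = 1.68e-12), and the differences were -0.88 in the first and -0.80 in the second library type.

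ANKRD1, a stretch-responsive gene of muscle that marks YAP1/TAZ activity in many cell types, measured 62.6, 76.8 and 63.8 FPKM at 1000 nM, against 98.0, 107 and 124 FPKM as the lowest, median and highest in DMSO. The second-type library was the highest of its group in both arms, and the groups did not overlap. The log2 change was -0.67 ± 0.11 (adjusted p = 0.000574), and it was -0.67 within the first type and -0.69 within the second. AMOTL2, whose protein binds YAP1 and holds it at junctions, measured 9.88, 5.73 and 9.25 FPKM at 1000 nM, against 11.4, 17.9 and 19.6 FPKM as the lowest, median and highest in DMSO. Here the second-type library was the lowest in both arms, at 51 reads for the gene at 1000 nM and 162 in DMSO. AMOTL2 fell by 1.01 ± 0.18 on the log2 scale (adjusted p = 0.0011), and the differences were -0.87 and -0.93 within the first and second types. Without 1000 nM replicate 2 its change was -0.78 and its adjusted p 0.205.

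F3, which encodes the cell-surface trigger of blood clotting, measured 113, 119 and 119 FPKM at 1000 nM, against 148, 173 and 178 FPKM as the lowest, median and highest in DMSO. DKK1, which encodes a secreted blocker of WNT receptors, measured 159.6, 141 and 165 FPKM at 1000 nM, against 206, 222 and 246 FPKM in DMSO. Both were abundant messages with no overlap between the groups, and both fell by about the same proportion. The log2 changes were -0.52 ± 0.07 for F3 (adjusted p = 3.15e-06) and -0.53 ± 0.07 for DKK1 (adjusted p = 9.55e-07).

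EDN1, which encodes the vasoconstrictor peptide endothelin-1, measured 4.05, 4.63 and 4.75 FPKM at 1000 nM, against 7.04, 7.61 and 8.25 FPKM as the lowest, median and highest in DMSO. The level was low but the groups were far apart, and EDN1 fell by 0.71 ± 0.12 (adjusted p = 0.000587). Within the first library type its adjusted p was 0.051 at a change of -0.73. DLC1, whose loss is known from liver cancer, measured 7.10, 6.62 and 6.89 FPKM at 1000 nM, against 8.25, 8.56 and 9.10 FPKM in DMSO. Its change was small at -0.31 ± 0.07 (adjusted p = 0.0131), and it was called neither within the first type (-0.24, adjusted p = 0.126) nor with voom on the recovered reads (-0.30, adjusted p = 0.155). Without 1000 nM replicate 2 it was at -0.29 (adjusted p = 0.267).

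The other 24 listed targets did not pass the test. In 2 of them, picked out here after their values were seen, the libraries did not overlap either. GADD45B, a stress-response gene, averaged 7.09 FPKM at 1000 nM and 12.8 FPKM in DMSO (log2 change -0.81 ± 0.25, adjusted p = 0.355), and the matrix gene THBS1 averaged 183 FPKM at 1000 nM and 203 FPKM in DMSO (-0.15 ± 0.06, adjusted p = 0.602). With terms for the library types the same count of 8 targets was called, and within the first type 6 were.

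**Figure D2:**
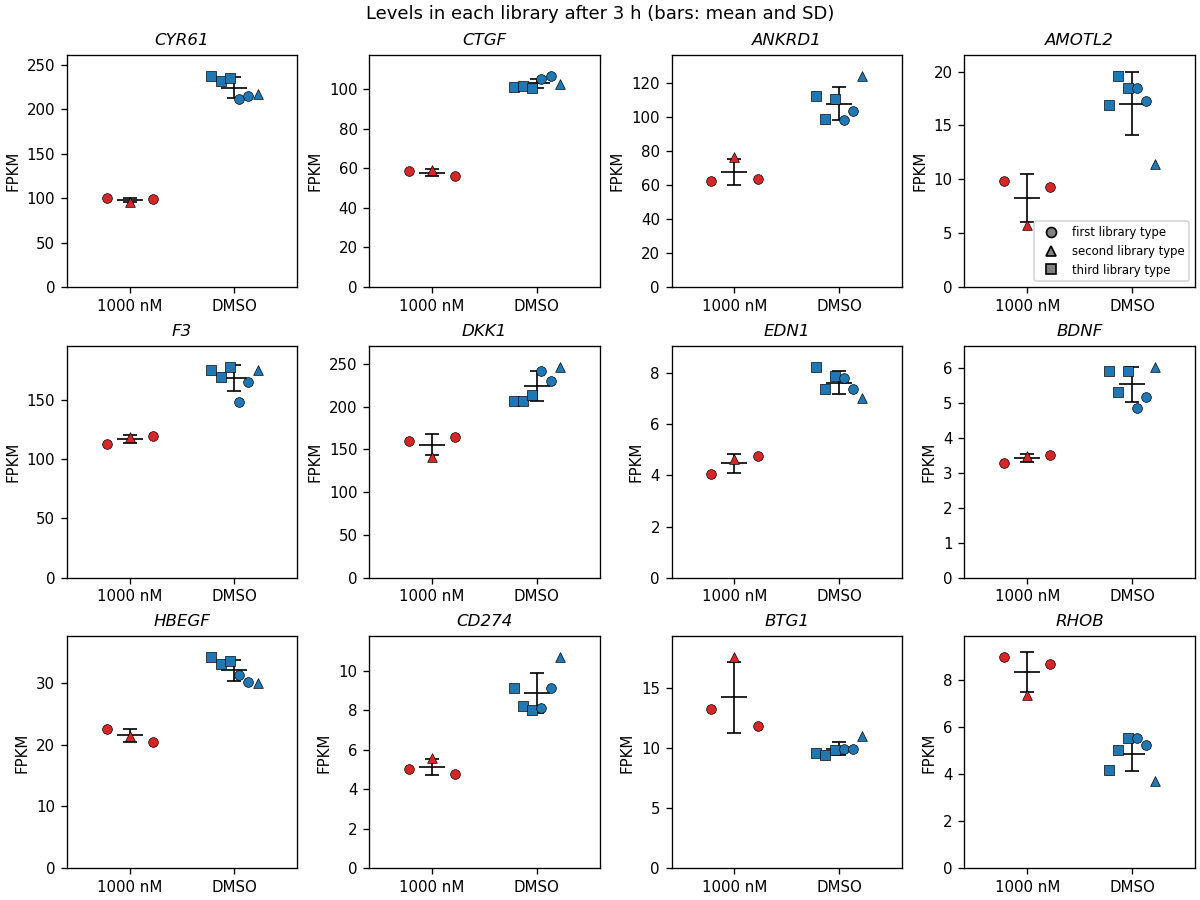
Level in each library (y axes, FPKM from 0) at 1000 nM (red, left) and in DMSO (blue, right) after 3 h for 12 genes, with bars for mean and SD and a marker shape for each library type. The 10 genes from CYR61 to CD274 are lower and BTG1 and RHOB higher in all 3 of the 1000 nM libraries than in any DMSO library, and RHOB did not pass the test over all libraries.

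Promoter windows are shown for the 5 called targets with a copy of the best-known DNA motif of the pathway, and were chosen for holding it. Of the other called targets F3 had 1 window, which held 0 copies, and CYR61 and DLC1 had no entry matched. TEAD factors recognise GGAATG, read on either strand (as CATTCC on the other), and the capitals mark each copy. The windows run from 250 bases before the annotated start to 50 bases after it, 300 bases in all, 5′ to 3′ in the direction of the gene, from RefSeq on GRCh38.p14. They are chr6:131951323-131951622 on the minus strand for CTGF, chr10:90921038-90921337 on the minus strand for ANKRD1, chr10:52314031-52314330 on the plus strand for DKK1, chr3:134374398-134374697 on the minus strand for AMOTL2, the second of its 2 windows, and chr6:12289764-12290063 on the plus strand for EDN1, the second of its 3 windows.
CTGF: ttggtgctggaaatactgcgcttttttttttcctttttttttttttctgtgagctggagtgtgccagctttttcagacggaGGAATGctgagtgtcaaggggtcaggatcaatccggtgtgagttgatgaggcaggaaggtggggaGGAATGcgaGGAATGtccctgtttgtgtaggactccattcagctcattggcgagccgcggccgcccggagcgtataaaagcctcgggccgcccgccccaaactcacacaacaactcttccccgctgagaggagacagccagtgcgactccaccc
ANKRD1: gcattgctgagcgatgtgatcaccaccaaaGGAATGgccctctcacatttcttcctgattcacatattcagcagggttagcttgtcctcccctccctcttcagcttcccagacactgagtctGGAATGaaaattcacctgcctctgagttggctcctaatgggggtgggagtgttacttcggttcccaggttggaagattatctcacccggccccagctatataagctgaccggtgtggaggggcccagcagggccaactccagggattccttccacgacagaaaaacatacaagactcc
DKK1: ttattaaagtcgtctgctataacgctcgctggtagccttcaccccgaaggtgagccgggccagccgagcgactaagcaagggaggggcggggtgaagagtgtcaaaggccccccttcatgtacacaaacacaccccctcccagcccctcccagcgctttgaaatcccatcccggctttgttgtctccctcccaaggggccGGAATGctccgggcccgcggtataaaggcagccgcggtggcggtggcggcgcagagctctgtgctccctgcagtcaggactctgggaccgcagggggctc
AMOTL2: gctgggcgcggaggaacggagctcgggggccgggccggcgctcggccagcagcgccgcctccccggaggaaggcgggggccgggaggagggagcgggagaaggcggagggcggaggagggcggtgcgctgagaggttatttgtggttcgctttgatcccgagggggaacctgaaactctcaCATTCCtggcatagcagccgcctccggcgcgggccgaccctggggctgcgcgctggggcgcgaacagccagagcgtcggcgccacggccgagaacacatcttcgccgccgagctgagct
EDN1: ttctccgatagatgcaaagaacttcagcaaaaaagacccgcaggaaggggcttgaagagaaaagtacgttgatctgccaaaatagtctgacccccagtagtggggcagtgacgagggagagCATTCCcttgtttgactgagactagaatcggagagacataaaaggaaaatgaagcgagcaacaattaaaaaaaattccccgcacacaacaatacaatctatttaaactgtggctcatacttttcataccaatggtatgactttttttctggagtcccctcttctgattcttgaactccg
CTGF holds 3 copies, beginning 169, 104 and 95 bases before the start, and only 44 of all 34943 windows hold 3 or more. ANKRD1 holds 2, at 220 and 128 bases before the start, DKK1 has 1 at 50, AMOTL2 has 1 at 69 and EDN1 has 1 at 129. Of the 21 windows of the 12 called lower genes that had an entry, 5 held the motif (23.8%), against 4907 of all 34943 windows (14.0%), and 0 of 7 windows of 3 called higher genes did. The match is a description of these letters and does not show binding. MYC and ENC1 were also among the called genes not matched to an entry.

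Outside the target list, the called lower genes encode growth factors, an immune ligand, kinases and a transcription factor. HBEGF, which encodes a ligand of the EGF receptor, measured 22.6, 21.4 and 20.5 FPKM at 1000 nM, against 30.0, 32.1 and 34.1 FPKM as the lowest, median and highest in DMSO. BDNF, which encodes a neurotrophin, measured 3.29, 3.47 and 3.51 FPKM at 1000 nM, against 4.85, 5.61 and 6.04 FPKM in DMSO. Both groups were tight and apart for each gene, and the log2 changes were -0.56 ± 0.07 for HBEGF (adjusted p = 9.55e-07) and -0.62 ± 0.07 for BDNF (adjusted p = 5.1e-07). HBEGF was the only member called among 11 EGF receptor ligands and receptors (median 0.07, and 0.02 with type terms) and among 18 immediate early and AP-1 genes, a list that also holds it (median -0.16, and -0.03 with type terms and -0.09 within the first type). BDNF, EDN1 and F3 were the 3 called, all lower, of 14 vasoactive, clotting and neurotrophic genes (median -0.05), beside 0.107% called lower over all genes. EDN1 and F3 are also counted among the YAP1/TAZ targets above, and this list too was drawn up with earlier results known.

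CD274, which encodes the T cell inhibitory ligand PD-L1, measured 5.04, 5.56 and 4.79 FPKM at 1000 nM, against 7.98, 8.68 and 10.7 FPKM as the lowest, median and highest in DMSO. It fell by 0.73 ± 0.11 on the log2 scale (adjusted p = 8.52e-05), with differences of -0.75 and -0.88 within the first and second types. None of the other 6 tested checkpoint ligands was called, where 0.132% of all tested genes were. The nearest homologue, PDCD1LG2 (PD-L2), was at -0.27 with an adjusted p of 0.869. Its groups did not overlap either, at 3.41 to 3.81 FPKM at 1000 nM and 3.91 to 5.00 FPKM in DMSO. MYC, which encodes a transcription factor of growth and ribosome genes, measured 22.8, 19.7 and 26.3 FPKM at 1000 nM, against 33.5, 36.7 and 40.2 FPKM in DMSO. MYC fell by 0.67 ± 0.10 (adjusted p = 8.52e-05). Of 30 ribosome biogenesis genes limma and voom called 0 (2 at an unadjusted p under 0.05), where limma called 0.132% of all tested genes. The median of the 30 was -0.09, and -0.055 with type terms and -0.11 within the first type. Of these genes 23 lay below 0, and 54.88% of all tested genes did.

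The kinase genes SGK1, a serum-induced relative of AKT, and PLK2, a polo-like kinase, fell by 0.50 ± 0.07 and 0.45 ± 0.07 (adjusted p = 1.73e-05 and 0.000384). SGK1 measured 2.53, 2.09 and 2.60 FPKM at 1000 nM, against 3.47 to 3.98 FPKM in DMSO, and PLK2 measured 43.9, 45.8 and 46.7 FPKM, against 54.8 to 70.1 FPKM. The remaining 3 lower genes were called less firmly. NABP1, which encodes a single-stranded DNA binding protein, was at -0.53 ± 0.11 (adjusted p = 0.0122), at -0.40 with type terms (adjusted p = 0.0896) and at -0.52 without 1000 nM replicate 2 (adjusted p = 0.18). ENC1, which encodes an actin-binding kelch protein, was at -0.24 ± 0.05 (adjusted p = 0.0271) and at 29.0 ± 0.746 FPKM at 1000 nM and 34.3 ± 1.00 FPKM in DMSO (SD, n = 3 and 6). It was called in 3 of the 9 fits that left out 1 library of the comparison, and without 1000 nM replicate 2 its change was -0.22 (adjusted p = 0.46). NCLP1, a pseudogene of nucleolin whose reads can be split with its parent, rested on 38, 2 and 18 reads at 1000 nM and 15 to 182 in DMSO, at -0.74 ± 0.16 (adjusted p = 0.0239). Its differences were -0.43 within the first and -1.65 within the second library type, and without 1000 nM replicate 2 its change was -0.52 (adjusted p = 1).

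The higher genes included messages whose proteins restrain growth. BTG1, an antiproliferative partner of the mRNA deadenylase, measured 13.3, 17.6 and 11.9 FPKM at 1000 nM, against 9.48, 9.88 and 11.0 FPKM as the lowest, median and highest in DMSO. FAM46C (TENT5C), which encodes a poly(A) polymerase, measured 6.99, 7.71 and 6.62 FPKM at 1000 nM, against 4.65, 4.93 and 5.42 FPKM in DMSO. TSC22D1, a leucine zipper gene first found as induced by TGF-beta, measured 37.3, 38.3 and 36.8 FPKM at 1000 nM, against 31.1, 32.1 and 32.9 FPKM in DMSO. In all 3 the groups did not overlap, though for BTG1 the lowest 1000 nM library was close to the highest DMSO library. The log2 changes were 0.48 ± 0.09 for BTG1 (adjusted p = 0.00123), 0.48 ± 0.09 for FAM46C (0.00407) and 0.22 ± 0.04 for TSC22D1 (0.00654), and without 1000 nM replicate 2 the adjusted p values were 0.42, 0.194 and 0.177. These were the called members of a list of 12 tested BTG/TOB, FAM46 and TSC22D genes, with 3 higher, 0 lower and a median of 0.23. Over all tested genes 0.0252% were called higher and the median was -0.02. This list was also drawn up with earlier results of these data known, so its count is a description only. TSC22D3 (GILZ), the glucocorticoid-induced relative in the list, measured 4.05, 3.10 and 4.02 FPKM at 1000 nM, against 2.25, 2.48 and 2.86 FPKM in DMSO. Its log2 change was 0.48 ± 0.12 with an adjusted p of 0.103, and it was called within the first type (0.65, adjusted p = 0.00217), with voom (0.67, adjusted p = 0.00132) and with type terms (0.49, adjusted p = 0.0218).

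The last higher gene, RP11-1072A3.4, rested on 1, 1 and 3 reads at 1000 nM and on 5 reads over all 6 DMSO libraries, 4 of which had none. The ratio of its read rates was 4.55 with an exact 95% interval of 1.05 to 19.8, which covers counting error only. Its fitted change was 1.33 ± 0.30 (adjusted p = 0.0377), and its adjusted p was 0.646 with voom and 0.433 within the first type. Leaving out 1000 nM replicate 2, or any 1 of replicate 3 and DMSO replicates 3 to 6, ended its call.

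RHOB, which encodes a short-lived endosomal protein, missed the threshold over all libraries, although the groups did not overlap. It measured 8.97, 7.37 and 8.68 FPKM at 1000 nM, against 3.73, 5.14 and 5.54 FPKM as the lowest, median and highest in DMSO. The log2 change was 0.73 ± 0.18 with an adjusted p of 0.111. It was 0.66 in the first type alone (adjusted p = 0.0823) and 0.86 with voom (adjusted p = 0.0596), and with library type terms it was 0.82 and was called (adjusted p = 8.88e-05).

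Each of the 21 called genes differed in the same direction in the first and in the second library type. These libraries are among the 9 that gave the calls, so the agreement is partly built in and is not separate evidence. With terms for the types in the model, 36 genes were called (0.227%), 12 higher (0.0756%) and 24 lower (0.151%), and 20 of the 21 were among them, NABP1 being the exception. Within the first type alone, with 2 libraries a group, 28 genes were called (0.176%), 11 higher (0.0693%) and 17 lower (0.107%), and 13 of the 28 were among the 21. The 8 not called there were the targets EDN1 and DLC1, NABP1, ENC1, NCLP1, BTG1, TSC22D1 and RP11-1072A3.4. Without the third type 12 of the 21 were called. The 9 not called there were AMOTL2 (adjusted p = 0.0865), DLC1 (0.0569), BTG1 (0.0797), FAM46C (0.0788), TSC22D1 (0.0795), NABP1, ENC1, NCLP1 and RP11-1072A3.4, with directions as over all libraries. Genes called with type terms and not over all libraries numbered 16, 8 higher and 8 lower. Besides RHOB and TSC22D3 they included the zinc finger gene KLF6, at 0.29 with these terms (adjusted p = 0.00291) and at 40.0 ± 3.34 FPKM at 1000 nM and 33.5 ± 1.55 FPKM in DMSO (SD, n = 3 and 6). Among those picked out after their values were seen were ETS1, a transcription factor gene (-0.33, adjusted p = 0.00291), the kinase gene NUAK1 (-0.27, 0.0311) and CDC42EP3, which encodes an effector of CDC42 (-0.20, 0.0236).

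**Figure D3:**
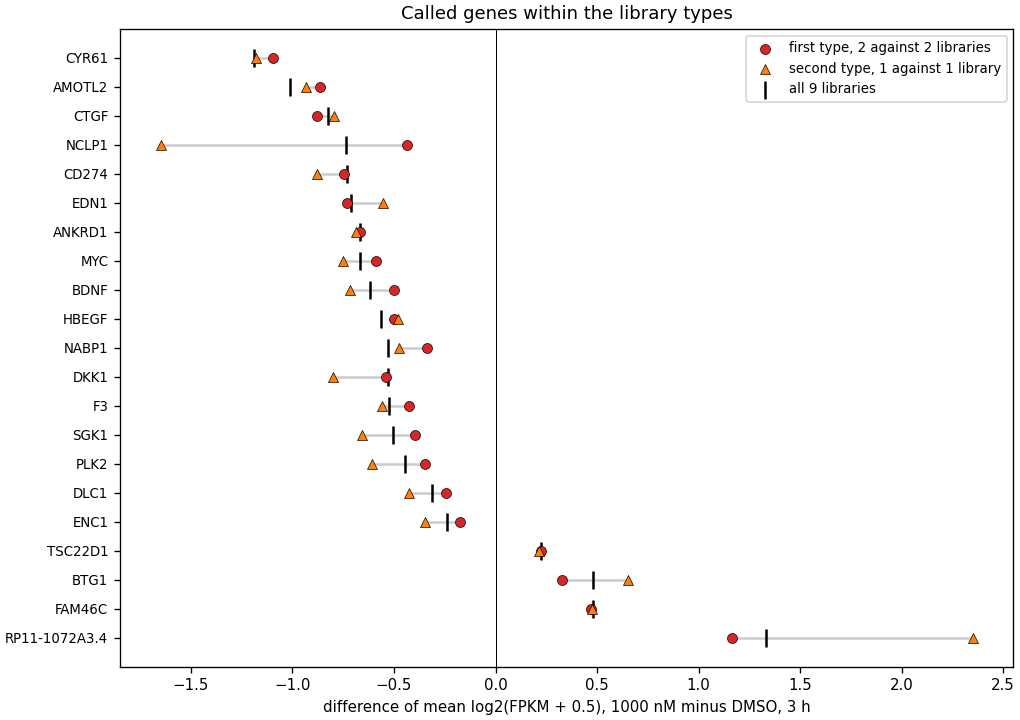
Differences of mean log2(FPKM + 0.5), 1000 nM minus DMSO at 3 h (x axis), for the 21 called genes within the first library type (circles, 2 against 2 libraries), within the second (triangles, 1 against 1) and over all 9 libraries (bars). All circles and triangles lie on the same side of 0 as the bar of their gene, and the widest gaps are those of NCLP1 and RP11-1072A3.4. The circles and triangles use libraries that also enter the bars and the choice of the genes.

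None of the genes listed as regulators of the pathway was called. AMOTL2, whose protein binds YAP1, was called and is counted above among the targets. YAP1 averaged 36.5 ± 4.79 FPKM at 1000 nM and 32.2 ± 1.63 FPKM in DMSO (SD, n = 3 and 6), a log2 change of 0.17 with an adjusted p of 0.723. WWTR1 was at 0.10 (adjusted p = 0.91) and TEAD1, which encodes a TEAD factor, at -0.03 (adjusted p = 0.975). Of the 23 tested genes of the YAP1, TAZ, TEAD and Hippo pathway list, limma and voom called 0 (2 at an unadjusted p under 0.05), and the median was -0.02. Over all tested genes limma called 0.132%, and 7.41% had an unadjusted p under 0.05. PGGT1B, whose product is part of an enzyme that attaches prenyl lipids to proteins, measured 1.62 ± 0.256 FPKM at 1000 nM and 2.02 ± 0.163 FPKM in DMSO and was not past the threshold (-0.25, adjusted p = 0.699). Limma and voom called 0 of 11 prenylation enzymes (1 at an unadjusted p under 0.05, median 0.05) and 0 of 23 mevalonate and cholesterol genes (1, median 0.03), among them HMGCS1, an early enzyme of the pathway, at 0.18 (adjusted p = 0.863). Of 27 SRF/MRTF and actin genes, whose transcription also follows actin assembly, 0 were called by either tool (1 at an unadjusted p under 0.05) and the median was -0.08, and -0.03 with type terms.

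No gene of the cell cycle lists was called. Over all tested genes limma called 0.132%, and 7.41% had an unadjusted p under 0.05. At so low a share of calls, 0 in a list of this size does not show that its genes were unchanged. Of 40 DNA replication and S phase genes limma and voom called 0 (2 at an unadjusted p under 0.05, median -0.02), and of 30 mitosis genes 0 (1, median 0.05). The mitotic kinase gene AURKB averaged 33.4 FPKM at 1000 nM and 37.4 FPKM in DMSO (-0.16, adjusted p = 0.875). KLF factors, a family linked to quiescence, had 0 of 12 called and a median of 0.01. At an unadjusted p under 0.05 there were 3 (25.0%), 2 higher and 1 lower. In 2 members the groups did not overlap. KLF6 measured 36.7 to 43.4 FPKM at 1000 nM and 31.4 to 35.0 FPKM in DMSO, and KLF4 4.04 to 5.91 and 6.19 to 7.41 FPKM. KLF2 was at 0.18 ± 0.34 (adjusted p = 0.954) on 7 to 67 reads at 1000 nM. FOXO factors and targets had 1 of 20 called, the higher gene BTG1, beside 0.0252% called higher over all tested genes. BTG1 is also counted in the BTG/TOB list above. The median was 0.10, and 5 of the 20 (25.0%) had an unadjusted p under 0.05, 4 higher and 1 lower. The atypical cyclin gene CCNG2 was at 0.39 (adjusted p = 0.46). Stress lists were likewise without a call by either tool, with medians of 0.01 for 15 unfolded protein and ATF4 genes, 0.06 for 18 NRF2 and aryl hydrocarbon receptor targets and 0.03 for 18 interferon-stimulated genes (1 gene each at an unadjusted p under 0.05). Limma also called 0 of 14 ERK feedback genes (2 at an unadjusted p under 0.05, median -0.05, and 0.05 with type terms), 0 of 15 TGF-beta and activin genes (2, median -0.07, and 0.01 with type terms), 0 of 20 extracellular matrix and integrin genes (1, median 0.01) and 0 of 6 heat shock genes (0, median -0.10). With voom the count was 1 in the TGF-beta and activin list, the follistatin gene FST, and 0 in the other 3.

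The mitochondrial and cytokine lists had the largest shifts of the median when the library types were taken into account. For the 13 mitochondrially encoded messages the median was -0.77 over all libraries, with 0 called and 10 at an unadjusted p under 0.05, and medians of -0.02 with type terms and 0.02 within the first type. Their summed level was 10637 to 11137 FPKM at 1000 nM, against 28413 to 34552 FPKM in the 3 third-type DMSO libraries and 9808 to 11064 FPKM in the other 3. The 17 cytokines of the gp130 family and NF-kB targets had a median of -0.25 and 0 called (3 at an unadjusted p under 0.05), and the medians were -0.07 with type terms and -0.01 within the first type. LIF, a cytokine that signals through gp130, was at -0.59 over all libraries (adjusted p = 0.621) and at -0.03 within the first type.

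**Figure D4:**
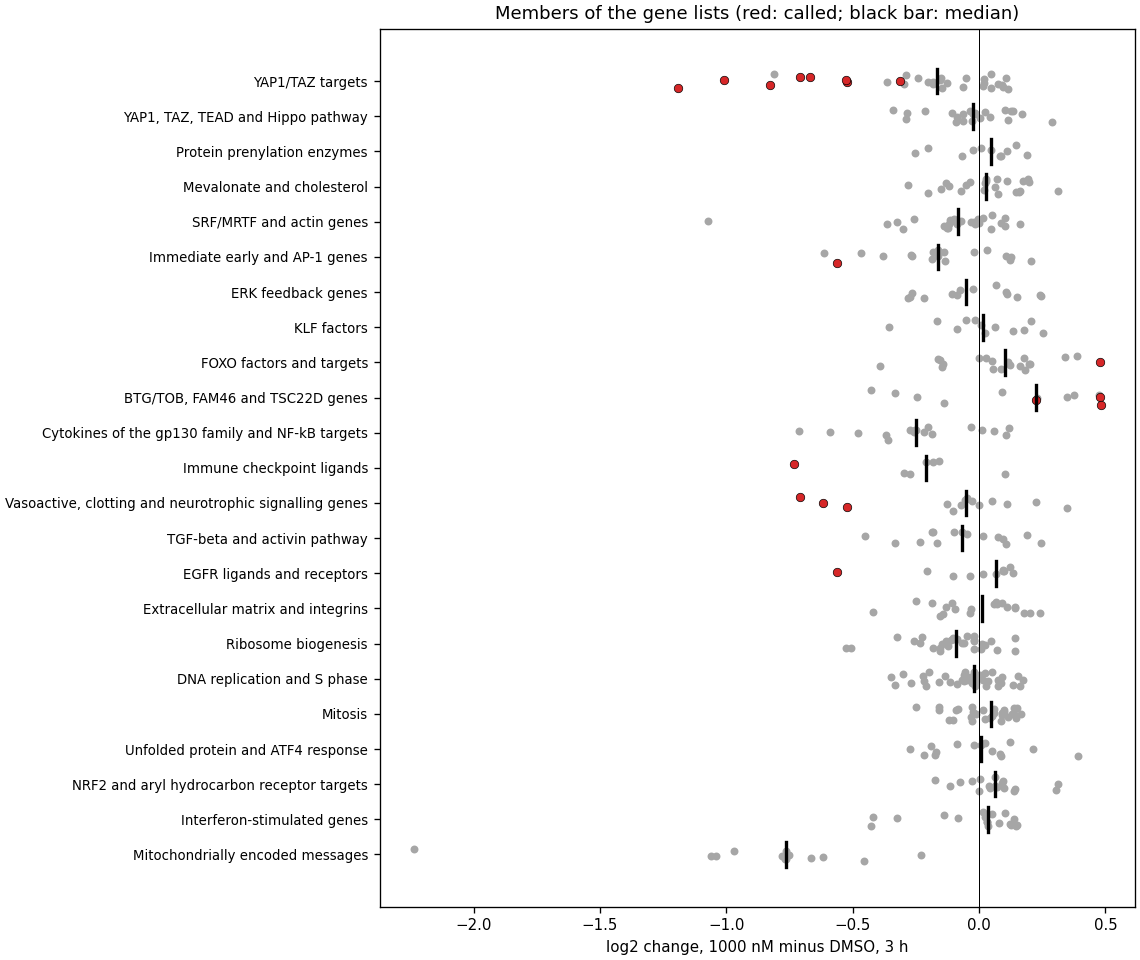
Log2 change at 1000 nM against DMSO after 3 h (x axis) of every tested member of 23 gene lists (rows), with called genes in red and the list median as a black bar. The YAP1/TAZ targets hold 8 of the red points on the left, the BTG/TOB, FAM46 and TSC22D list holds 3 on the right, and the mitochondrially encoded messages lie left of 0 without a call.

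The lower doses used the same DMSO libraries, so their changes are set side by side and not as separate evidence. At 100 nM 11 genes were called (0.0693%), all 11 lower (0.0693%), and at 300 nM 20 were (0.126%), 4 higher (0.0252%) and 16 lower (0.101%). All 3 libraries at 100 nM and all 3 at 300 nM were of the first type, while 1000 nM replicate 2 was of the second. Dose and library type are therefore partly mixed in these values. At 100, 300 and 1000 nM CYR61 was at -0.92, -1.07 and -1.19, CTGF at -0.62, -0.74 and -0.83, and AMOTL2 at -0.50, -0.66 and -1.01. AMOTL2 measured 5.73 FPKM in replicate 2 at 1000 nM, against 9.88 and 9.25 FPKM in replicates 1 and 3. DKK1 was at -0.29, -0.49 and -0.53 and MYC at -0.41, -0.50 and -0.67. ANKRD1, at -0.63, -0.76 and -0.67, and EDN1, at -0.66, -0.85 and -0.71, had their lowest value at 300 nM. The doses were also compared directly, with the DMSO libraries entering only the estimate of the spread. In this comparison 1000 nM against 100 nM gave 0 called genes with limma and with voom (615 at an unadjusted p under 0.05), and 1000 nM against 300 nM gave 0 with each (465). CYR61 was 0.27 ± 0.08 lower at 1000 nM than at 100 nM (95% interval -0.44 to -0.10), and DKK1 0.24 ± 0.08 lower (-0.39 to -0.09), neither past the threshold after adjustment, as no gene had an adjusted p under 0.955. For ANKRD1 the interval of this difference was -0.31 to 0.22 and for EDN1 -0.33 to 0.23.

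Over time the 3 h changes stood between 1 h, when none of the 21 genes was past the threshold, and changes at 6 and 24 h that were larger for most. Time and library type are partly mixed here. At 1000 nM the libraries of the first and second type numbered 1 and 2 at 1 h and 2 and 1 at 3 h. They numbered 3 and 0 at 6 h and 1 and 2 at 24 h. DMSO had 3 third-type libraries at 1 h and 3 at 3 h, and 0 at 6 and 24 h. At 1 h limma called 0 of all tested genes at this dose (1637 at an unadjusted p under 0.05). At 1 h CYR61 was at -0.13, CTGF at 0.00, ANKRD1 at 0.14, CD274 at 0.12 and BTG1 at 0.18. The change of the 1000 nM effect between 1 and 3 h, each against its own DMSO libraries, was past the threshold for 8 genes (0.0504%), all lower (0.0504%) and all among the 21. The 3 h libraries that gave the 21 also enter this test, so that overlap is partly built in. The count was 5 without 1000 nM 1 h replicate 3. They were CYR61 (-1.06 ± 0.10, adjusted p = 1.98e-09), CTGF (-0.83 ± 0.09, 1.36e-07), CD274 (-0.85 ± 0.16, 0.00742), ANKRD1 (-0.81 ± 0.16, 0.0176), BDNF, F3, DKK1 and DLC1. For AMOTL2, at -0.81 ± 0.25, the adjusted p was 0.616, and for EDN1, already at -0.21 at 1 h, the change was -0.50 ± 0.17 (0.816).

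At 1000 nM 319 genes were called at 6 h (2.01%) and 5506 at 24 h (34.7%). At 6 h 16 of the 17 lower genes were called lower (1.3% of all genes were), NCLP1 being the exception at -0.01, and at 24 h 17 of 17 were (15.6%). Of the 4 higher genes 3 were called higher at 6 h (0.706%) and 3 at 24 h (19.1%), all but RP11-1072A3.4. The step from 3 to 6 h was tested against the DMSO libraries of both times and was past the threshold for 36 genes (0.227%), 30 further down (0.189%) and 6 further up (0.0378%). The count was 21 without 1000 nM 6 h replicate 1. The lower ones included 8 of the 17, namely CTGF (-1.27 ± 0.09, adjusted p = 1.69e-13), ANKRD1 (-1.28 ± 0.16, 1.07e-06), DKK1 (-1.18 ± 0.09, 9.51e-13), CYR61 (-1.09 ± 0.10, 2.11e-10), EDN1, DLC1, HBEGF and F3. RHOB was among the 6 that went up (1.41 ± 0.26, adjusted p = 0.00159), with log2 changes of -0.34, 0.73, 2.14 and 3.56 at 1, 3, 6 and 24 h. MYC, at -0.14, -0.67, -0.85 and -0.81 over the same times, and CD274, at 0.12, -0.73, -1.15 and -1.04, did not pass this test between 3 and 6 h (adjusted p = 0.92 and 0.532). BTG1 and FAM46C were at 0.42 and 0.52 at 6 h and at 1.15 and 1.20 at 24 h.

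**Figure D5:**
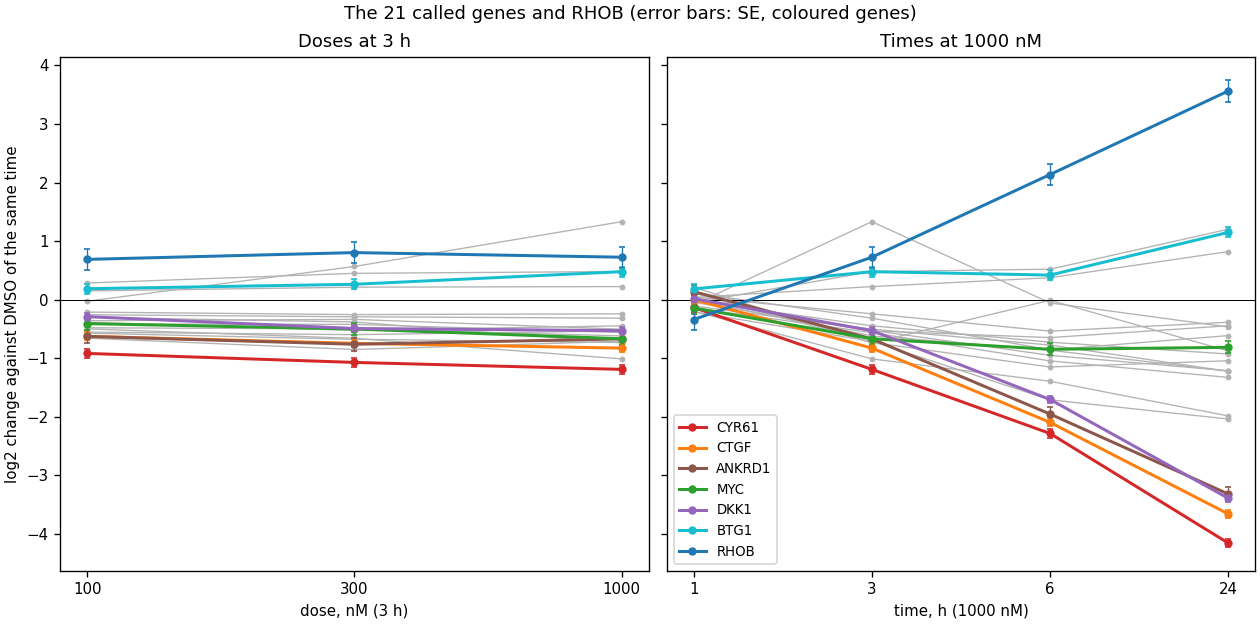
Log2 change against DMSO of the same time (y axis) for the 21 called genes and RHOB, by dose at 3 h (left, nM) and by time at 1000 nM (right, h), with standard errors on the 7 coloured genes and the other called genes in grey. Over dose 16 of the 17 lower genes lie deeper at 1000 nM than at 100 nM and RP11-1072A3.4 reaches 1.33, and over time CYR61, CTGF, DKK1 and ANKRD1 go on down to values below -3 and RHOB goes up to 3.56 at 24 h. The mix of library types differed between these doses and times.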

How the data were processed

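Of 60 MDA-MB-231 RNA libraries in 16 groups, the 3 libraries at 1000 nM and the 6 with DMSO after 3 h form the comparison. The submitters' processing notes name the aligner STAR 2.4.2a, the build hg19, the counter featureCounts 1.4.6-p2 (Subread) and, without a version, DESeq2. Which annotation was counted is not given in the sources used. The deposited table holds log2(FPKM + 1) values made by the authors for 38342 gene names. The planned tests assumed FPKM, so these deposited log2 values were turned back into FPKM.

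Whole reads were recovered from the steps between low values. All 1304094 values above 0 (100%) came out within 0.01 read of a whole number. Reads carry no molecular identifiers, so depth gives counting error only. The recovered depth of the 60 libraries ran between 0.475 and 86.5 M reads. Library types were told from values and not from labels.

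A gene entered the test if 3 or more libraries had 1 FPKM or more, which left 15866 genes. They were tested with limma 3.58.1 in R 4.3.3 on log2(FPKM + 0.5), a model of the 16 group means over all libraries with 44 residual degrees of freedom, a trended prior variance and robust moderation. Genes were called at a Benjamini-Hochberg adjusted p under 0.05. The fit was tested on simulated data, where more of the calls were false than the threshold states, so the share of false calls among the 21 may exceed it too. Voom on the recovered reads called 20 genes at 1000 nM against DMSO, 17 of them among the 21.

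The gene lists (30, with 514 genes, of which 46 were not tested) and the named genes were chosen with earlier results of these data known. The rule named all called genes, the 3 most changed members of each list, the 10 most changed of those called only within the first library type, 16 fixed genes, and the 3 lowest and 3 highest called genes in each further comparison. Genes outside the rule are marked as picked out after their values were seen. Further comparisons were 1000 nM against 100 and 300 nM and the change of the 1000 nM effect from 1 to 3 h and from 3 to 6 h. Alternatives were pseudocounts of 0.1 and 1 FPKM, no filter and a stricter one, median-of-ratios scaling, array weights, fewer samples in the fit, type terms, single library types, and leaving out each library. Array weights with type terms were added after the data had been seen. Promoter windows came from RefSeq, with 15 of the 21 called genes matched by symbol or synonym. The result of 1 list is not reported here.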

Additional observations from a re-analysis of the deposited data

Results flagged for a closer look

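In 26 sets of 6 DMSO values after 3 h (depth and the levels of the genes above), 5 had a single library far from the other 5, and chance flags about 1 in 20 such groups. Replicate 1 held 48.64 M reads, the deepest of the 6. AMOTL2 was lowest in replicate 6 at 11.4 FPKM, and 2 genes were highest in replicate 6, NCLP1 at 3.218 FPKM and BTG1 at 11.02 FPKM. Replicate 6 is the second-type library with the fewest reads of this group. SGK1 was highest in replicate 1 at 3.982 FPKM.

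The 1000 nM effect differed between 1 and 3 h, each against DMSO of its own time, in 8 genes by the limma test of the difference. The log2 differences, 3 h minus 1 h, were -1.057 for CYR61, -0.8293 for CTGF, -0.8065 for ANKRD1, -0.8465 for CD274, -0.6052 for BDNF, -0.5458 for DKK1, -0.5542 for F3 and -0.4312 for DLC1. The adjusted p of DLC1 was 0.0486, and those of the other 7 were at most 0.0176.

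Between 3 and 6 h the effect at 1000 nM differed further. The differences, 6 h minus 3 h, were -1.283 for ANKRD1, -1.268 for CTGF, -1.176 for DKK1, -1.094 for CYR61, -0.9992 for EDN1, -0.5406 for DLC1, -0.4824 for HBEGF and -0.4276 for F3. OXTR, the oxytocin receptor gene, differed by -1.209 (adjusted p = 6e-05), with log2 changes of -0.86 at 6 h and 0.35 at 3 h, of which the 3 h value did not pass the test (adjusted p = 0.499). RHOB differed by 1.412, the apoptosis gene BMF by 0.8943 and the zinc finger gene KLF7 by 0.6735 (adjusted p = 0.00159, 0.0105 and 0.0458).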

How the results depend on the processing

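The 21 calls at 1000 nM against DMSO became 36 with type terms, 47 with array weights and type terms, 2 with only the groups compared (CYR61 and CTGF) and 3803 with array weights alone, and leaving out 1 library gave 13 to 34. They were 13 without 1000 nM replicate 2 (12 of the 21 kept) and 34 without replicate 1 or without replicate 3. The other counts were within 1.5 times (14 when the third type was left out), and no called gene turned its direction in any of its alternatives. Of the 21 genes 11 were called in every alternative except only the groups compared: CYR61, CTGF, ANKRD1, F3, DKK1, HBEGF, BDNF, CD274, MYC, SGK1 and PLK2. The 0 calls of 1000 against 100 nM became 9 with no filter and 328 with array weights (0 to 5 leaving out 1 library), and the 0 against 300 nM became 8 and 31 (0 to 2). The 8 calls of the effect at 3 h minus 1 h became 16 with no filter, 4643 with array weights, 19 with type terms and also with array weights added, 3 when the third type was left out, 15 when libraries of fewer than 2 M reads were, and 2 with only the groups compared, and were 5 to 12 leaving out 1 library (5 without 1000 nM 1 h replicate 3, 12 without replicate 1). The 36 calls at 6 h minus 3 h became 3143 with array weights, 101 with type terms, 458 with both, 213 within the first type and 22 with only the groups compared, and were 21 to 48 (21 without 1000 nM 6 h replicate 1). The cause of these shifts was not tested. The fit of only the 3 h libraries could not be run for the comparisons across times. No paired analysis was possible because the labels give the columns no replicate numbers. Of the 3 treated libraries replicate 2 held only 1.45 M reads, and NCLP1 and RP11-1072A3.4 had 2 and 1 reads in it.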

Other observations

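Several genes of the lists lay apart between the groups at 3 h without passing the limma test. FST, which encodes the activin antagonist follistatin, averaged 12.8 ± 0.898 FPKM at 1000 nM and 16.2 ± 1.36 FPKM in DMSO (SD, n = 3 and 6), with no overlap. Its log2 change was -0.33 (adjusted p = 0.128), and it was called with voom (-0.35, adjusted p = 0.0335). CYP1B1, a cytochrome P450 gene induced through the aryl hydrocarbon receptor, averaged 86.2 ± 4.43 FPKM at 1000 nM and 69.8 ± 5.54 FPKM in DMSO, again with no overlap (0.31, adjusted p = 0.398). INSIG1, which encodes a sterol sensor partner, averaged 15.0 ± 1.32 FPKM at 1000 nM and 12.0 ± 1.19 FPKM in DMSO, with a change of 0.31 over all libraries (adjusted p = 0.178) and of 0.13 within the first type. BMF, which encodes an activator of apoptosis, was at 0.35 (adjusted p = 0.507) and was called once type terms were added (0.46, adjusted p = 0.0405), with overlapping groups.

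Within the first library type 15 genes were called that were not called over all libraries, 10 higher and 5 lower. Of the 10 with the largest change there, the groups overlapped over all 9 libraries in each gene except TSC22D3. SNAPC1, which encodes a subunit of the snRNA-activating complex, was at -0.47 there (adjusted p = 0.0464) and at -0.20 over all libraries (adjusted p = 0.913). FAM89A was at 0.79 there (adjusted p = 0.0486) and at 0.39 over all libraries (adjusted p = 0.548). The pseudogene IPO7P1, whose reads can be split with its parent, was at -0.69 there (adjusted p = 0.0185), at -0.58 with type terms (adjusted p = 0.0113) and at -0.40 over all libraries (adjusted p = 0.685).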
